A study of Rattus norvegicus with 16 samples.

Results

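The 9 genes described here encode parts of the myelin sheath or act in the cells that make it: Mbp, Mobp, Mal, Cldn11, Cnp, Ugt8, Mag, Mog and Olig1. They were chosen by gene symbol, and where a symbol had several loci the locus with the highest mean was taken. All 9 were read in the hypothalamus, among 16183 symbols, and 8 were read in the hippocampus, among 16223 symbols; Olig1 was not analysed in the hippocampus. Messenger RNA had been sequenced from 2 brain regions, the hippocampus and the hypothalamus. The animals were male rats of the outbred strain Sprague Dawley. The fructose group received fructose for 6 weeks and the control group was untreated. Hippocampus had 4 fructose and 4 control libraries, and hypothalamus 3 fructose and 4 control libraries; hypothalamus fructose replicate 4 was not analysed here. Nothing in the labels tells whether every sample is a separate rat, and the p-values therefore measure the spread between these samples, which may be technical.

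Oligodendrocytes wrap the axons of the brain in layers of their own membrane, and this sheath lets impulses travel fast. Its compact layers are held together by basic proteins on the inner face, its lipids are rich in galactosylceramide, and adhesion proteins sit on the surfaces that face the axon and the outside. The hippocampus and the hypothalamus both contain myelinated fibre tracts, so myelin mRNA is among the abundant mRNA of either tissue.

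Expression was given as FPKM, fragments scaled to transcript length and to the size of the library, which allows levels of different genes to be set side by side. Fructose was compared with control by limma's moderated test on log2(FPKM + 1), run over every locus that averaged 1 FPKM or more, and a difference passed where its Benjamini-Hochberg adjusted p was under 0.05. Read counts were not used here, and sequencing depth is therefore not known for any library. Summed over loci, a library's FPKM came to 353703 to 402099 in the hippocampus and to 435105 to 492778 in the hypothalamus. Both replicate 1 libraries of each region stood apart from the rest. They correlated at 0.985 in the hippocampus and 0.980 in the hypothalamus with each other across loci, but only at 0.840 to 0.896 and 0.880 to 0.909 with the other libraries. The other libraries correlated at 0.934 to 0.979 and 0.956 to 0.979 among themselves. The tissues matched their labels: 9 hippocampal neuron markers summed to 209 to 399 FPKM in hippocampus libraries and to 87.7 to 119 FPKM in hypothalamus libraries, with Fibcd1 listed at 0 in both tables. The 12 hypothalamic neuron markers, which include oxytocin and vasopressin, summed to 3919 to 9646 FPKM in hypothalamus libraries and to 8.82 to 36.3 FPKM in hippocampus libraries. Npy, one of the 12, was listed at 0 in the hippocampus and at 0.0133 FPKM in the hypothalamus.

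The sequences before the start sites of these genes are shown as a description. Whether they relate to the levels of the genes in these libraries was not tested. RefSeq promoter windows on the rat build GRCr8, from 250 bases before to 50 bases after the start, were matched for 7 of the 9 genes; Mog and Olig1 were not matched. Each line reads 5′ to 3′ on the strand of the gene. Capitals mark matches, on either strand, to CTGGCAC (the core recognised by Myrf, the factor that switches on myelin genes), to AACAAAG (a SOX-type word), to CAGCTG (an E-box) and to TGGCACCCAGG, which overlaps CTGGCAC in Mag and Cnp. The windows lie at chr1:95290995-95291294 (minus strand) for Mag, chr10:86011254-86011553 (plus strand) for Cnp, chr3:135341374-135341673 (minus strand) for Mal and chr8:128746982-128747281 (plus strand) for Mobp.
Mag: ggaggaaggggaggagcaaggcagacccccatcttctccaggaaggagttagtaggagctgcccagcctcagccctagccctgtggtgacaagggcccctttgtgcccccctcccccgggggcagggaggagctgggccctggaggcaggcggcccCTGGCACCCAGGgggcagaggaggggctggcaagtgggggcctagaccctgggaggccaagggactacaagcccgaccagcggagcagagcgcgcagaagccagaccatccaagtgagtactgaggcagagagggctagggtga
Cnp: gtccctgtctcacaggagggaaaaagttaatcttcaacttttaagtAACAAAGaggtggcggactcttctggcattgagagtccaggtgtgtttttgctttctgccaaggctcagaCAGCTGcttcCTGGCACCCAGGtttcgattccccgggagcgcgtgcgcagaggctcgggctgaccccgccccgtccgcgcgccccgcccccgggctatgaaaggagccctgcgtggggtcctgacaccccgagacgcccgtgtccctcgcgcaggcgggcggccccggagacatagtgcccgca
Mal: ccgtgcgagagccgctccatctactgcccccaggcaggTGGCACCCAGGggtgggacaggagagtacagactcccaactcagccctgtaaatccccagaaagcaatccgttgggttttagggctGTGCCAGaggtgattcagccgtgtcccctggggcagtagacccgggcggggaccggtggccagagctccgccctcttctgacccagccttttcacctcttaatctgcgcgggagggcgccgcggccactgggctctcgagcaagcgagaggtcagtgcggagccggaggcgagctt
Mobp: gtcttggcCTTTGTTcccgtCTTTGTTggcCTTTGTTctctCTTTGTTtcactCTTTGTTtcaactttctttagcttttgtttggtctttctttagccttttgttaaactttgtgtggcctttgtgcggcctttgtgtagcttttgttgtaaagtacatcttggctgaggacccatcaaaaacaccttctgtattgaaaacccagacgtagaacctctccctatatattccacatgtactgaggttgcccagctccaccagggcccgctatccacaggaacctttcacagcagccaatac

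CTGGCAC occurred in the windows of 3 of the 7 genes, first base at -94 in Mag, at -124 in Cnp and, on the opposite strand, at -126 in Mal. Of all 33469 RefSeq windows of this length, 4.75% held it. The longest word shared by the windows of at least 3 of the genes, on either strand, was TGGCACCCAGG, with 11 letters. It lay in Mag, Cnp and Mal, at -93, -123 and -212, and in 19 of all windows (0.0568%). As it was found by comparing these very windows, the count describes them and carries no test. AACAAAG matched 5 times in Mobp, between -242 and -197 on the opposite strand, and once in Cnp at -204; 5.98% of all windows held it. CAGCTG matched in Cnp at -134 and in one of the 2 windows of Mbp at -78, against 15.1% of all windows. The windows of Cldn11 and Ugt8 held none of these 4 words. A match is a string of letters in this window and does not show that a factor binds there.

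The structural proteins of compact myelin had the highest levels. In the hippocampus Mbp, myelin basic protein, had 1622, 701, 1574 and 1331 FPKM in fructose replicates 1 to 4, against 1150.3, 1091, 1955 and 1920.1 FPKM in control replicates 1 to 4. Mobp, a small basic protein of the compact layers, had 413, 183, 368 and 377 FPKM with fructose, against 299, 341, 631 and 515 FPKM in controls. For both genes fructose replicate 2 was the lowest library and control replicates 3 and 4 were high, and the groups overlapped. In whole tissue, a difference in the number of oligodendrocytes and one in the myelin mRNA of each cell could not be told apart. The mean of Mbp was 1307 ± 424 FPKM in fructose and 1529 ± 472 FPKM in control hippocampus (SD, n = 4 each). The mean of Mobp was 335 ± 103 FPKM in fructose and 447 ± 155 FPKM in control hippocampus (SD, n = 4 each). On the log2(FPKM + 1) scale Mbp differed by -0.25 ± 0.32 (SE), with a 95% interval of -0.99 to 0.50. Mobp differed by -0.41 ± 0.33, with an interval of -1.16 to 0.33, which corresponds to 0.751-fold of the control level (0.448 to 1.26). Its exact two-sided permutation p over 70 arrangements was 0.343, and its unadjusted limma p of 0.238 ranked 989th of the 11385 loci tested. No difference of a myelin gene passed the limma test in the hippocampus: the adjusted p was 1.00 for each of the 8 genes, and 0 of the 8 had an unadjusted p under 0.05, against 0% of all loci past the adjusted threshold and 0.808% at an unadjusted p under 0.05.

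The membrane proteins with 4 membrane-spanning segments had log2 differences closer to 0. Mal, a lipid-associated protein that takes part in membrane traffic, had 131, 57.0, 117 and 129.7 FPKM in fructose replicates 1 to 4, against 65.8, 112, 139 and 106 FPKM in control hippocampus. Cldn11, the claudin that forms the tight junctions within myelin, ranged from 170.15 to 211 FPKM with fructose and from 162 to 280.2 FPKM in controls. Mal was lowest in fructose replicate 2 and next lowest in control replicate 1, so that the groups spanned nearly the same range. The log2 differences were 0.02 ± 0.32 for Mal (95% interval -0.71 to 0.74) and -0.07 ± 0.19 for Cldn11 (-0.51 to 0.36). Cldn11 had the narrowest interval of the 8 genes.

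Among the enzymes, Cnp, which hydrolyses cyclic nucleotides and keeps cytoplasmic channels in myelin open, averaged 311 ± 104 FPKM in fructose and 312 ± 84.7 FPKM in control hippocampus. Ugt8, which makes galactosylceramide, averaged 30.4 ± 8.63 FPKM in fructose and 34.4 ± 12.7 FPKM in control hippocampus (SD, n = 4 each for both genes). Both were lowest in fructose replicate 2 and highest in control replicate 3. Their log2 differences were -0.04 ± 0.30 (95% interval -0.73 to 0.64) and -0.15 ± 0.29 (-0.82 to 0.52).

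Of the surface proteins, Mag, which faces the axon across the innermost gap, had 132, 53.4, 109 and 60.8 FPKM in fructose replicates 1 to 4, against 88.3, 71.7, 137 and 57.3 FPKM in control hippocampus. Mog, an immunoglobulin-family protein of the outermost layer, had 88.9, 51.0, 97.4 and 86.1 FPKM with fructose, against 60.2, 86.9, 139 and 94.8 FPKM in controls. Mag was low in replicate 4 of either group, a pattern that Mog did not share, and the groups overlapped for both genes. The log2 differences were -0.02 ± 0.36 for Mag (95% interval -0.84 to 0.80) and -0.21 ± 0.28 for Mog (-0.86 to 0.44). In all, 7 of the 8 log2 differences in the hippocampus were below 0, against 51.4% of all loci, with a median of -0.11. Without fructose replicate 2 this count was 3 of 8 and the median 0.04, and without control replicate 3 it was 4 of 8 with a median of 0.03. The groups overlapped for all 8 genes, while 0.668% of loci had groups that did not overlap.

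**Figure D1:**
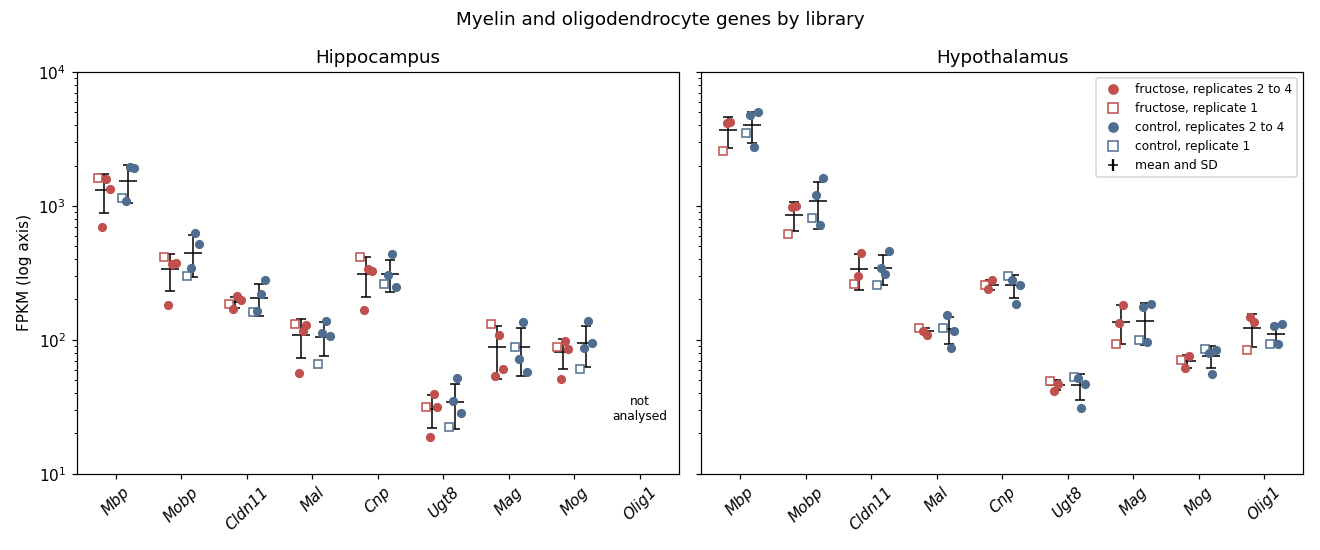
FPKM of each gene (log axis) in every library, hippocampus left and hypothalamus right, fructose in red and control in blue, with the mean and SD in black and replicate 1 as open squares. Mbp lies highest in both regions, between 701 and 1955 FPKM in the hippocampus and between 2557 and 4991 FPKM in the hypothalamus, and the fructose and control points of each gene overlap.

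In the hypothalamus the same order held for the leading genes. Mbp had 2557, 4153 and 4259 FPKM in fructose replicates 1 to 3, against 3525, 4741, 2753 and 4991 FPKM in control replicates 1 to 4. Mobp had 612, 972 and 992 FPKM with fructose, against 809, 1212, 714 and 1609 FPKM in controls. Fructose replicate 1 and control replicate 3 were the low libraries for both genes, and the groups overlapped. The means were 3656 ± 953 FPKM (fructose, n = 3) and 4003 ± 1050.5 FPKM (control, n = 4) for Mbp. For Mobp they were 859 ± 214 FPKM (fructose, n = 3) and 1086 ± 410.1 FPKM (control, n = 4). The log2 differences were -0.13 ± 0.28 for Mbp (95% interval -0.77 to 0.51) and -0.30 ± 0.32 for Mobp (-1.04 to 0.45).

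Cldn11 averaged 336 ± 98.8 FPKM in fructose and 342 ± 84.4 FPKM in control hypothalamus. Mal averaged 116 ± 6.23 FPKM in fructose and 119.98 ± 27.1 FPKM in control hypothalamus (SD, n = 3 and 4 for both genes). The 3 fructose libraries of Mal lay between 109 and 122 FPKM, inside the control range of 87.5 to 154 FPKM. Cnp averaged 257 ± 20.4 FPKM in fructose and 255 ± 49.1 FPKM in control hypothalamus, and Ugt8 46.0 ± 4.02 FPKM in fructose and 45.6 ± 10.3 FPKM in control hypothalamus. The 95% intervals of the log2 differences were -0.62 to 0.55 for Cldn11, -0.46 to 0.42 for Mal, -0.39 to 0.45 for Cnp and -0.44 to 0.51 for Ugt8.

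Mag had 93.6, 135 and 183 FPKM in fructose replicates 1 to 3 of the hypothalamus, against 99.8, 177, 96.2 and 184 FPKM in control replicates 1 to 4. Mog had 70.5, 61.6 and 76.1 FPKM with fructose, against 85.6, 80.1, 55.3 and 84.1 FPKM in controls. Olig1, a transcription factor that oligodendrocytes need to mature, had 83.6, 148 and 136 FPKM with fructose, against 93.5, 126, 93.3 and 131 FPKM in controls. Olig1 was lowest in fructose replicate 1, while the other 2 fructose libraries were the highest of all 7. The log2 differences were -0.01 ± 0.32 for Mag (95% interval -0.76 to 0.74), -0.12 ± 0.18 for Mog (-0.54 to 0.30) and 0.12 ± 0.23 for Olig1 (-0.43 to 0.66). All 9 genes had overlapping groups in the hypothalamus, against 3.33% of loci whose groups did not overlap. The differences were below 0 for 6 of the 9 genes, against 48.5% of all loci, with a median of -0.02. By limma 0 of the 9 passed (adjusted p 1.00 for each) and 0 had an unadjusted p under 0.05, against 0.0087% of the 11498 loci past the adjusted threshold and 3.14% at an unadjusted p under 0.05. That share is 1 locus, the zinc transporter gene Slc39a12, named after its value was seen; with the replicate number as a block, 2 loci passed, and no myelin gene. The lowest exact permutation p over 35 arrangements was 0.486, for Mobp.

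Whether the fructose difference itself differed between the regions was tested as an interaction for the 8 genes read in both. The hypothalamus difference minus the hippocampus difference ran from -0.04 for Mal to 0.19 for Ugt8 on the log2 scale. None passed by limma (adjusted p 1.00 for each of the 8, and 0 with an unadjusted p under 0.05), against 0% and 2.31% of the 9931 symbols tested. The 95% intervals were wide, for example -0.90 to 1.13 for Mobp and -0.62 to 1.00 for Ugt8.

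Leaving out both replicate 1 libraries moved the hippocampus values away from 0. All 8 genes then had a log2 difference below 0, against 52% of all loci. Fructose replicate 2, the lowest of the 8 libraries for 7 of the 8 genes (8.70% of all loci), was then 1 of 3 fructose libraries. As the genes varied together, the count is not one of 8 separate results. The effect of leaving out this library as well was not tested. Mobp averaged 309 ± 109 FPKM in fructose and 496 ± 146 FPKM in control hippocampus (SD, n = 3 each), a log2 difference of -0.71 ± 0.34 with a 95% interval of -1.52 to 0.10. Its unadjusted limma p was 0.0779 and its adjusted p 1.00. Mbp differed by -0.49 (-1.35 to 0.36) and Mog by -0.47 (-1.14 to 0.20), and the other 5 genes by -0.36 to -0.16. Groups still overlapped for all 8 genes, against 4.05% of loci whose groups did not, and 0 of 8 had an unadjusted p under 0.05, against 1.34% of loci (0% past the adjusted threshold).

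The replicate 1 pair taken alone ran the other way in the hippocampus, where fructose was above control for all 8 genes, by 0.20 (Cldn11) to 0.98 (Mal) on the log2 scale. In the hypothalamus the same pair had fructose below control for 8 of the 9 genes, by up to 0.46 for Mbp (log2 difference -0.46), with Cldn11 at 0.02. Without replicate 1, the hypothalamus held 2 fructose and 3 control libraries, and the differences ran from -0.19 (Mobp) to 0.29 (Olig1). Olig1 was the one gene of the 9 whose groups then did not overlap, at 142 ± 8.52 FPKM (fructose, n = 2) and 117 ± 20.5 FPKM (control, n = 3), while 27.6% of all loci had groups that did not overlap. Its interval was -0.12 to 0.70 and its adjusted limma p 0.616. In this setting 0 of 9 passed the adjusted threshold and 0 had an unadjusted p under 0.05, against 0.0174% and 9.28% of loci.

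**Figure D2:**
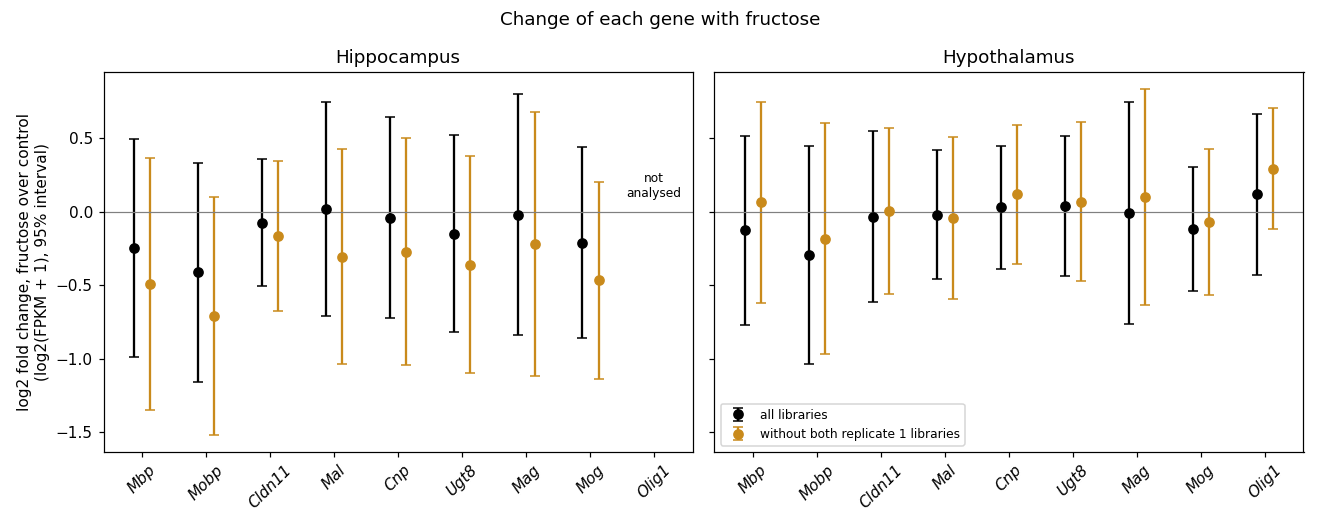
Log2 fold change, fructose over control, of each gene with its 95% interval from limma, in the hippocampus (left) and the hypothalamus (right), for all libraries (black) and without both replicate 1 libraries (gold). Every interval crosses 0; in the hippocampus the gold points lie below the black ones, with Mobp at -0.71 against -0.41.

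The genes largely varied together from library to library in the hippocampus, and less closely in the hypothalamus. In the hippocampus all 8 genes were above their own mean in control replicate 3, where 59.3% of all loci were above theirs, and 7 of the 8 had their highest value there, against 10.3% of all loci. All 8 were below their mean in fructose replicate 2, as were 51.9% of all loci, and 7 of the 8 had their lowest value there, against 8.70% of all loci. The exception was Cldn11, highest in control replicate 4 and lowest in control replicate 1. The mean log2 deviation of the 8 genes was 0.24, -0.74, 0.20 and 0.01 in fructose replicates 1 to 4, and -0.31, -0.07, 0.57 and 0.10 in control replicates 1 to 4. The FPKM of the 8 genes summed to 1401 in fructose replicate 2 and to 3706 in control replicate 3, the lowest and the highest of the 8 libraries. These sums were 0.369% and 0.955% of all FPKM in their libraries, and Mbp made up 49.5% to 59.1% of the sum across libraries.

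In the hypothalamus all 9 genes were above their mean in control replicate 2 and below it in control replicate 3, where 48.8% and 56.5% of all loci were above and below theirs. The highest value fell in control replicate 4 for 4 genes (20.0% of all loci) and in control replicate 1 for 3 (16.8%). For 1 gene each it fell in control replicate 2 (7.64%) and fructose replicate 2 (12.8%). The lowest fell in control replicate 3 (4 genes, 9.52%), fructose replicate 1 (4, 15.8%) and control replicate 1 (1, 20.1%). In control replicate 1, Mog, Cnp and Ugt8 deviated by 0.24, 0.23 and 0.23, but Mag by -0.41 and Cldn11 by -0.37. For Cnp these values hold for its highest-mean locus alone. With both loci named Cnp summed, control replicate 1 was at 299 FPKM, below the mean of 374 FPKM over the hypothalamus libraries. The sum was highest in control replicate 4 (481 FPKM) and lowest in fructose replicate 1 (262 FPKM). The mean log2 deviation of the 9 genes was -0.26, 0.00 and 0.17 in fructose replicates 1 to 3, and -0.07, 0.24, -0.38 and 0.29 in control replicates 1 to 4. The summed FPKM of the 9 genes ran from 4103 in fructose replicate 1 to 7874 in control replicate 4, which was 0.943% and 1.60% of all FPKM. The spread within groups was wide beside that of other genes in the hippocampus: the median SD of the members was 0.49 on the log2 scale and that of all tested loci 0.24. In the hypothalamus the medians were 0.35 and 0.25.

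**Figure D3:**
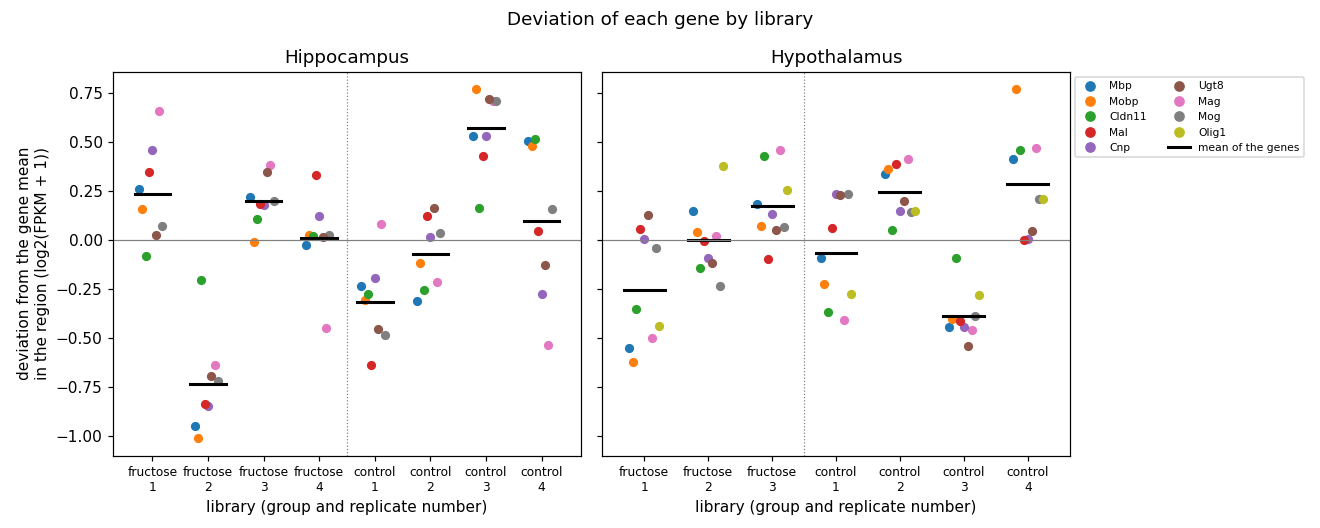
Deviation of each gene (coloured points) from its own mean in the region, in log2(FPKM + 1), by library, with the mean of the genes as a black bar and a dotted line between fructose and control libraries. In the hippocampus the bars run from -0.74 in fructose replicate 2 to 0.57 in control replicate 3.

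Not every gene kept step. In hippocampus control replicate 4, Mag lay 0.63 below the mean deviation of the 8 genes (-0.63), while Cldn11, Mbp and Mobp lay 0.42, 0.41 and 0.38 above it. In fructose replicate 2 of the hippocampus, Cldn11 lay 0.53 above the mean deviation, with a deviation of its own of -0.20. The ratio of Mbp to Cnp FPKM, at the highest-mean Cnp locus, was 3.93 to 4.64 in the 4 fructose libraries of the hippocampus. In controls it was 3.59 to 7.75, with the highest value in control replicate 4. A second locus named Cnp, left out of this ratio, held 14.3% of the summed Cnp FPKM in control replicate 4. It held 10.4% in fructose replicate 2 and no more than 0.406% in the other hippocampus libraries. The ratio of Mag to Mog was 1.49, 1.05, 1.12 and 0.706 in fructose replicates 1 to 4 of the hippocampus, against 1.47, 0.826, 0.986 and 0.604 in control replicates 1 to 4. In either group it was highest in replicate 1 and lowest in replicate 4. In the hypothalamus the ratio was 1.33, 2.18 and 2.40 in fructose replicates 1 to 3, against 1.17, 2.21, 1.74 and 2.19 in control replicates 1 to 4. There replicate 1 was the lowest of either group. The ratio of Mobp to Mbp lay between 0.229 and 0.323 in all 15 libraries.

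Cnp had 2 loci of that name in either table, and the share of the second, lower one differed between libraries. The highest-mean locus held the larger part in all 15. In the hippocampus the second locus was at 0.304, 19.3, 0 and 0.655 FPKM in fructose replicates 1 to 4, and at 0.658, 1.24, 1.29 and 41.2 FPKM in control replicates 1 to 4. In the hypothalamus it was at 7.33, 124 and 178 FPKM in fructose replicates 1 to 3, and at 0.339, 181, 107 and 226 FPKM in control replicates 1 to 4. It thus held 34.2% to 47.0% of the summed Cnp FPKM in hypothalamus replicates 2 to 4, but 2.79% and 0.113% in fructose and control replicate 1. With both loci summed, Cnp averaged 360.3 ± 97.2 FPKM in fructose and 384 ± 101 FPKM in control hypothalamus (SD, n = 3 and 4). The log2 difference was then -0.09, where the highest-mean locus alone gave 0.03. Ugt8 had a second locus in the hippocampus, at 8.39 FPKM in fructose replicate 4, at 10.3 FPKM in control replicate 4 and at no more than 1.83 FPKM in the other 6 libraries. All values of these loci carried the status OK. How the reads were divided between loci of the same name was not tested.

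**Figure D4:**
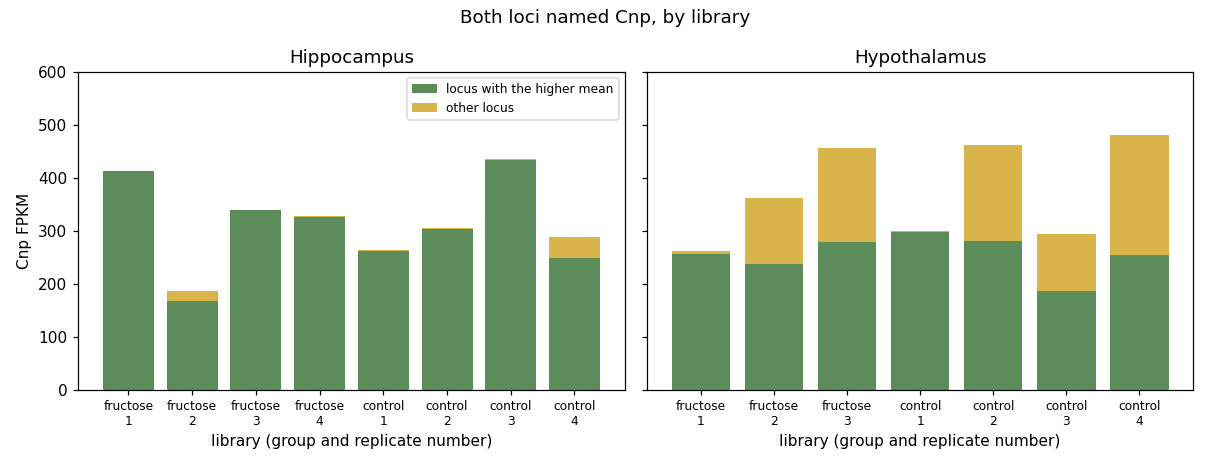
FPKM of the 2 loci named Cnp, stacked, in each library of the hippocampus (left) and the hypothalamus (right), fructose libraries before control libraries. The second locus (yellow) adds 107 to 226 FPKM in hypothalamus replicates 2 to 4, and under 10 FPKM in both hypothalamus replicate 1 libraries.

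Levels per length were ordered within each region; the tables of the regions were normalized separately, so that ratios across them carry no test. In the hippocampus the order from high to low was Mbp, Mobp, Cnp, Cldn11, Mal, Mag, Mog and Ugt8. Mbp exceeded Mobp, and Cldn11 exceeded Mal, with no overlap of their ranges over the 8 libraries, while Mag exceeded Mog in 4 of 8 and cannot be ordered against it. In the hypothalamus the order was Mbp, Mobp, Cldn11, Cnp, Mag, Mal, Olig1, Mog and Ugt8. Mal exceeded Olig1 in 3 of 7 libraries and Mag exceeded Mal in 5 of 7, so these 3 neighbours were not separated. Cldn11 stood above the highest-mean Cnp locus in 6 of 7 hypothalamus libraries, but both Cnp loci together, at 374 FPKM on average, stood above Cldn11, at 339.5 FPKM, in 6 of 7, as in all 8 hippocampus libraries. Mbp was above 99.9% of the tested loci in either region, and Ugt8, the lowest of the genes, above 79.0% in the hippocampus and 83.6% in the hypothalamus.

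The mean FPKM in the hypothalamus over that in the hippocampus was 2.80 (fructose) and 2.62 (control) for Mbp, and 2.56 (fructose) and 2.43 (control) for Mobp. For Cldn11, Mag and Ugt8 it lay between 1.33 and 1.75 in either treatment. Mal had nearly equal levels, at 1.07 (fructose) and 1.14 (control). Mog, at 0.858 (fructose) and 0.801 (control), and the highest-mean locus of Cnp, at 0.826 (fructose) and 0.818 (control), were lower in the hypothalamus. With both Cnp loci summed the ratio was above 1 instead, at 1.14 (fructose) and 1.19 (control). Of the surface proteins, Mag, at 1.54 (fructose) and 1.57 (control), thus lay above 1 with Mbp and Mobp, and Mog below 1. The regions were normalized separately, so the side of 1 on which a ratio near it falls has no fixed meaning.

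Of 32 other genes of mature myelin and oligodendrocytes, 28 were tested in the hippocampus; 23 had a log2 difference below 0 and 5 above, with a median of -0.09 beside 51.4% of all loci below 0. Without fructose replicate 2 this count was 12 below and 16 above (median 0.05), and without control replicate 3 it was 13 below and 15 above (median 0.02). The smallest unadjusted p values of this list belonged to Plekhb1, Bcas1 and Opalin. Bcas1, a marker of oligodendrocytes that are beginning to myelinate, averaged 71.1 ± 20.0 FPKM in fructose and 95.2 ± 19.7 FPKM in control hippocampus (log2 difference -0.44 ± 0.25). Opalin, a membrane protein of mature oligodendrocytes, averaged 35.9 ± 10.7 FPKM in fructose and 44.4 ± 11.03 FPKM in control hippocampus (log2 difference -0.32 ± 0.27). Plekhb1 averaged 165 ± 27.2 FPKM in fructose and 229.99 ± 80.6 FPKM in control hippocampus (log2 difference -0.43 ± 0.24). In the hypothalamus 29 were tested, 15 above 0 and 14 below, with a median of 0.00. No gene of the list passed the limma test in either region, and 0 had an unadjusted p under 0.05.

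The enzymes of myelin lipid synthesis had 10 genes above 0 and 7 below in the hippocampus (median 0.02), and 7 above and 9 below in the hypothalamus (median -0.02). Scd1, which desaturates fatty acids, averaged 8.83 ± 3.25 FPKM in fructose and 5.13 ± 0.954 FPKM in control hypothalamus (log2 difference 0.64 ± 0.24). Its unadjusted p was 0.0289, the 1 under 0.05 among the 16 tested there (3.14% of all loci), and its adjusted limma p 1.00. Of the 11 oligodendrocyte transcription factors tested in the hippocampus, 6 were below 0 and 5 above. Id4, which holds back oligodendrocyte differentiation, averaged 11.7 ± 1.49 FPKM in fructose and 15.3 ± 2.40 FPKM in control hippocampus (log2 difference -0.35 ± 0.14). Tcf7l2, a Wnt-pathway factor of differentiating oligodendrocytes, averaged 2.96 ± 0.436 FPKM in fructose and 3.89 ± 0.486 FPKM in control hippocampus (log2 difference -0.31 ± 0.13). These were the 2 factors with an unadjusted p under 0.05 (0.0356 and 0.0484; adjusted limma p 1.00 for both), against 0.808% of all loci. In the hypothalamus Id4 and Tcf7l2 had log2 differences of 0.22 ± 0.18 and 0.55 ± 0.32, and 8 of the 12 factors tested were above 0.

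Among genes of oligodendrocyte precursors, 8 of 12 were below 0 in the hippocampus (median -0.05) and 5 of 12 in the hypothalamus (median 0.08). Pdgfra, the growth factor receptor that marks precursors, averaged 16.6 ± 3.69 FPKM in fructose and 13.5 ± 2.08 FPKM in control hippocampus (log2 difference 0.27 ± 0.18). C1ql1, which had the smallest unadjusted limma p of this list in the hippocampus (0.0874), and Cspg5 went the other way. Their log2 differences were -0.42 ± 0.22 and -0.24 ± 0.18. Tnr, an extracellular matrix protein made by these cells, averaged 5.05 ± 0.918 FPKM in fructose and 3.38 ± 0.755 FPKM in control hypothalamus (log2 difference 0.47 ± 0.18, unadjusted p 0.036, adjusted limma p 1.00). The proteins of the node of Ranvier and its flanks, where myelin ends meet the axon, had 5 of 9 genes above 0 in the hippocampus and 8 of 10 in the hypothalamus, with medians of 0.04 and 0.11. None of these lists had a gene past the adjusted limma threshold.

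Genes of peripheral myelin, which Schwann cells make outside the brain, set some hypothalamus libraries apart. All 5 tested were below 0 (median -0.91), none past the adjusted threshold. Pmp22, a membrane protein of compact peripheral myelin, averaged 32.4 ± 5.76 FPKM in fructose and 49.6 ± 17.97 FPKM in control hypothalamus (log2 difference -0.54 ± 0.28). Prx, a scaffold protein of Schwann cells, averaged 0.337 ± 0.0266 FPKM in fructose and 1.96 ± 1.88 FPKM in control hypothalamus (log2 difference -0.91 ± 0.48). The summed FPKM of the 8 peripheral genes was 91.6, 85.7 and 100.4 in fructose replicates 1 to 3, against 109, 271, 176 and 119.97 in control replicates 1 to 4. Control replicates 2 and 3 were the high libraries; among the central myelin genes replicate 2 was high and replicate 3 low. The part of peripheral nerve tissue in the central myelin values was not tested.

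The genes most like the myelin genes across libraries were chosen by the Pearson correlation of their log2(FPKM + 1), centred within region, with the mean of the myelin genes over the 15 libraries. The points are the same libraries for every gene, the replicate 1 libraries among them, and r is given as a description with no p. Of 9931 symbols, those outside the 9 with the highest r included Adamts4 (0.962), Tmem125 (0.944), Wscd1 (0.942), Tmem88b (0.893), Plekhh1 (0.884), Map6d1 (0.876) and Bcas1 (0.872). Over the 11 libraries of replicates 2 to 4 the r of these genes was 0.867 to 0.973. Adamts4, a metalloprotease of the extracellular matrix, and Bcas1 both belong to the list of mature myelin and oligodendrocyte genes described above. Adamts4 averaged 7.67 FPKM in fructose and 8.03 FPKM in control hippocampus, and 9.92 FPKM in fructose and 10.4 FPKM in control hypothalamus. The 8 myelin genes read in both regions, themselves part of that mean, had r from 0.584 for Cldn11 to 0.931 for Mbp.

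Markers of the meninges, the membranes that cover the brain, leaned one way in each region without a gene past the adjusted threshold. In the hippocampus all 11 tested meningeal fibroblast genes had a log2 difference above 0 (median 1.09), and in the hypothalamus all 11 were below 0 (median -1.48); Col1a2 was listed at 0 in every library. An unadjusted limma p under 0.05 was found for 1 of the 11 in the hippocampus, against 0.808% of all loci, and for 8 of the 11 in the hypothalamus, against 3.14%. Their summed FPKM was 422, 827, 232 and 396 in fructose replicates 1 to 4 of the hippocampus, against 295, 82.5, 59.6 and 571 in control replicates 1 to 4. Fructose replicate 2, lowest for the myelin genes, was highest here, and control replicate 3, highest for the myelin genes, was lowest here. In the hypothalamus the sums were 159.9, 88.5 and 366 in fructose replicates 1 to 3, against 355, 474, 533 and 764 in control replicates 1 to 4. There control replicate 4 was the highest for both kinds of gene. The sums of the groups overlapped in both regions. Medians for astrocytes were -0.06 in the hippocampus and 0.20 in the hypothalamus, for microglia -0.02 and -0.03, for neurons -0.02 and -0.02, for endothelium 0.13 and -0.24, and for choroid plexus 0.11 and -0.01. No gene of these lists passed the adjusted threshold, and the part of tissue composition in the myelin values was not tested.

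**Figure D5:**
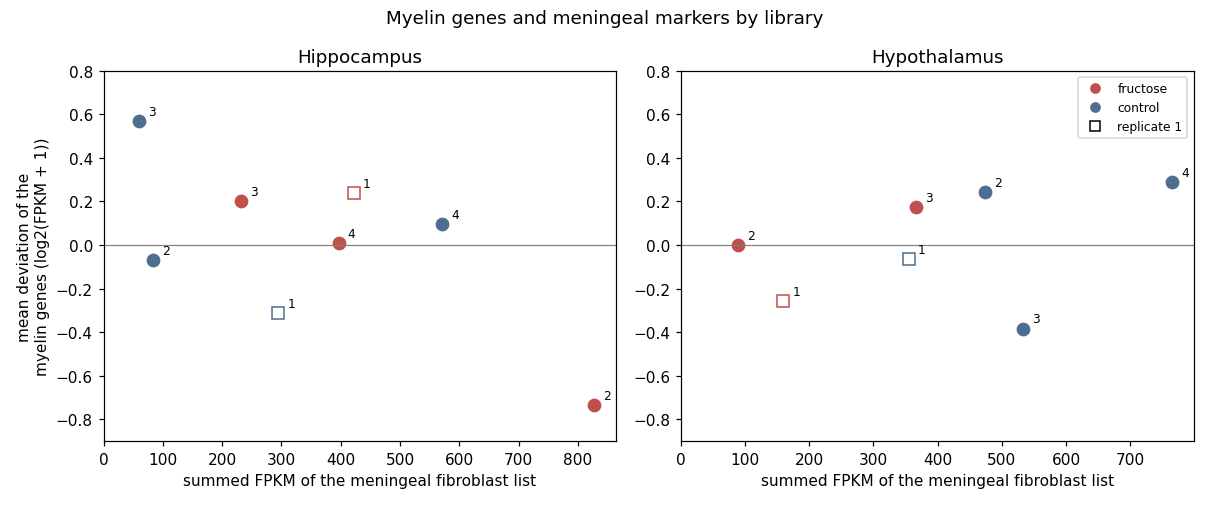
Mean log2 deviation of the myelin genes in each library (vertical axis) against the summed FPKM of 12 meningeal fibroblast genes (horizontal axis), fructose in red and control in blue, with the replicate number beside each point and replicate 1 as open squares. In the hippocampus (left) fructose replicate 2 lies at 827 FPKM and -0.74, and control replicate 3 at 59.6 FPKM and 0.57; in the hypothalamus (right) control replicate 4 lies highest on both axes.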

How the data were processed

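Poly-A RNA of hippocampus and hypothalamus was sequenced on an Illumina instrument, per the labels' protocols. The authors' deposited values are FPKM per locus and library with a status flag; per the submitters' processing notes they were made with TopHat and TopHat2, Bowtie and Bowtie2, Cufflinks and Cuffdiff on the build rn5, with no versions given. All 15 libraries of the 2 tables were used, grouped by the labels; the design assumed 16 samples, so the hypothalamus was compared as 3 fructose against 4 control libraries. FPKM depends on how reads are shared between loci of the same name and on the composition of the library. No counts were used, so depth is unknown and no count model was fitted. A status other than OK occurred at 117 loci in the hippocampus and 36 in the hypothalamus, none of them a myelin gene described here.

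The test was limma 3.58.1 (R 4.3.3) with a variance trend and a single term for group, run on log2(FPKM + 1) of the loci whose mean FPKM reached 1 (11385 and 11498). The p-values were adjusted over all loci by Benjamini and Hochberg's method, with a threshold of 0.05; fold changes understate the change of low genes. The method was tested on simulated data with independent noise at the median SD of all tested loci. That SD is below the median SD of the myelin genes, which also vary together. The simulation therefore does not measure the power for these genes. Symbols with several loci were taken at the highest mean. The genes named are the 9 myelin genes, the 3 smallest p of each related list, 2 abundant genes of other cell types and the 8 most alike; of those for other cell types only list values are given, and Slc39a12 was named after its value was seen. A few genes that this rule selects are not reported here. The genes, lists and tests were chosen with earlier results of these data known. The promoter words were chosen after the windows were seen.

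The labels number the replicates without saying what a number stands for. Deviations from group means of same-numbered libraries correlated at 0.892, 0.208, 0.481 and 0.410 in hippocampus replicates 1 to 4 and at 0.848, 0.488 and 0.456 in hypothalamus replicates 1 to 3, all over 0.1, and a fit with the number as a block was run as an alternative. The reported tests have no block. Computed without replicate 1, the values were -0.23, 0.404 and 0.0882 in the hippocampus, and 0.269 and 0.0364 in the hypothalamus, so a pairing of the other numbers is not established. Alternatives were other pseudocounts, filters and scalings, library weights, a replicate block, a replicate 1 term, summed loci and leaving libraries out. Figures were drawn with matplotlib 3.10.9.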

Additional observations from a re-analysis of the deposited data

Results flagged for a closer look

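In 3 of the 25 groups of 4 libraries tested, one library stood apart from the other 3 by Dixon's ratio on the log2(FPKM + 1) scale, the gap to the nearest library over the whole range of the group. Chance alone gives about 1 in 20 independent groups, but these are genes that vary together on the same libraries, so the count cannot be read against that share. In fructose hippocampus, replicate 2 was low for Mobp (ratio 0.857; 183 FPKM, with the others between 368 and 413 FPKM) and for Mal (ratio 0.863; 57.0 FPKM, with the others between 117 and 131 FPKM). In control hypothalamus, replicate 3 was low for Mog (ratio 0.849; 55.3 FPKM, with the others between 80.1 and 85.6 FPKM). On the FPKM scale the ratios were 0.804, 0.810 and 0.820, and none of the 3 passed the limit. Both libraries were below the mean for every one of these genes read in their region.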

How the results depend on the processing

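The count of these genes past the adjusted limma threshold was 0 in every setting run, and the lowest adjusted p outside the single-library omissions was 0.286, for Olig1 in the hypothalamus. With 3 or 4 libraries a group, the 95% intervals of Mobp reach below -1 on the log2 scale in both regions. The replicate block turned the hypothalamus differences of Mag to 0.15 and of Cldn11 to 0.11, gave 2 called loci there, and changed no other call. Without both replicate 1 libraries, Mal in the hippocampus was at -0.31, the hypothalamus differences were 0.0637 for Mbp, 0.0982 for Mag and 0.00413 for Cldn11, the region difference of Mal was 0.27, the hypothalamus astrocyte median was 0.38 and 2 hypothalamus loci were called. With library weights Mal in the hippocampus was at -0.40, hypothalamus Mbp, Mag and Mal at 0.12, 0.0676 and 0.0334, the region differences of Cldn11 and Mal at -0.0499 and 0.41, and 336 symbols, none of these genes, differed between regions, against 0 without weights. A replicate 1 term gave 0.0427 for Mag and 0.00751 for Cldn11 in the hypothalamus, summed loci gave -0.0891 for Cnp in the hypothalamus and -0.0293 for its region difference, and a filter at 5 FPKM gave 0 called hypothalamus loci. The cause of these shifts was not tested; the summed setting differs by the second Cnp locus, and the filter by fewer loci tested. Leaving out 1 library at a time gave 0 to 1 called loci in the hippocampus (1 without control replicate 3), 0 to 2 in the hypothalamus (2 without control replicate 1, 3 or 4, and 0 without fructose replicate 2 or 3) and 0 to 1 for the difference (1 without hypothalamus control replicate 3), and median differences of -0.26 to 0.04 and -0.19 to 0.08. In the hippocampus the log2 differences then ran from -0.39 to 0.0292 for Mbp, -0.58 to -0.15 for Mobp, -0.18 to 0.0848 for Cldn11, -0.19 to 0.30 for Mal, -0.20 to 0.23 for Cnp, -0.33 to 0.0646 for Ugt8, -0.24 to 0.21 for Mag and -0.41 to -0.00758 for Mog. In the hypothalamus they ran from -0.29 to 0.11 for Mbp, -0.47 to -0.0688 for Mobp, -0.26 to 0.13 for Cldn11, -0.16 to 0.10 for Mal, -0.11 to 0.11 for Cnp, -0.14 to 0.12 for Ugt8, -0.24 to 0.24 for Mag, -0.26 to -0.0365 for Mog and -0.0396 to 0.37 for Olig1. The region differences ran from -0.16 to 0.36 for Mbp, -0.15 to 0.35 for Mobp, -0.19 to 0.21 for Cldn11, -0.32 to 0.17 for Mal, -0.20 to 0.23 for Cnp, -0.0269 to 0.36 for Ugt8, -0.22 to 0.26 for Mag and -0.11 to 0.29 for Mog. Single-library omissions for the mature myelin and meningeal lists, added after the data were seen, gave medians of -0.19 to 0.0478 and 0.70 to 1.56 in the hippocampus, and of -0.11 to 0.11 and -2.01 to -0.89 in the hypothalamus. Median centring and upper-quartile scaling turned no sign.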
